A study of Bos taurus with 14 samples.

Results

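A set of 347 genes of the 27607 in the count table was detected in some Day-4 bovine embryo groups and had almost no reads in others. The study compared 16-cell embryos on Day 4 that passed through embryonic genome activation (EGA) in 3 environments. IVP embryos stayed in in vitro culture (3 libraries). DRY embryos (3 libraries) and LACT embryos (3 libraries) were produced in vitro too, and were placed as 2- to 4-cell embryos on Day 2 in the oviducts of primiparous Holstein-Friesian cows and flushed out on Day 4. DRY cows were dried off at calving and not milked, and LACT cows were milked. A Day-2 group of 4-cell IVP embryos (5 libraries), sampled before the main wave of EGA, was shared by all comparisons over time. Each library was a pool of 5 embryos, and each DRY or LACT pool came from 1 cow, so the cow and the pool cannot be told apart.

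Levels are CPM, the count of a gene divided by the sum of all counts of its library, times 1000000. A gene was called present in a group at a mean of at least 10 CPM and absent at no more than 3 counts in each of the 3 libraries. Genes present in exactly 1 Day-4 group and absent in the others ("only" genes), and genes present in 2 groups and absent in the remaining group ("absent" genes), were kept. Genes in a table of the study and those it lists as histones, 38 identifiers in all, were left out, and 0 of them met the rule. ENSBTAG00000055153, an absent-IVP gene listed under nucleosome core and not under a histone term, was kept. The 6 classes held 72 only-IVP, 49 only-DRY, 104 only-LACT, 41 absent-IVP, 73 absent-DRY and 8 absent-LACT genes. Of the 8179 genes with at least 10 CPM in a Day-4 group, 4.24% belonged to a class. The Day-4 values chose these genes, so every Day-4 difference given here is a description with no test. Only the Day-2 libraries were not used in the choice. Genes are given by Ensembl identifier, since symbols and positions were not used here, and marker genes of embryo, cumulus or oviduct cells were therefore not checked.

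The early bovine embryo lives on messenger RNA stored in the oocyte. During EGA these maternal transcripts are cleared and the embryo's own genes are switched on, with the major wave around the 8- to 16-cell stage. Both processes set which transcripts a 16-cell embryo holds. In a pool of a few embryos, fewer embryos that carry a transcript and less of it in each embryo cannot be told apart. In the cow this happens in the oviduct, whose lining supplies the embryo with nutrients and proteins, and lactation changes the metabolites that reach the oviduct.

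Library depth ranged from 22711367 to 40357379 counts, at which 3 counts corresponded to 0.0743 to 0.132 CPM. In each Day-4 group 1 library stood apart from the others in that it lay at their average. Among genes of at least 10 CPM in the group, IVP 1 was within 10% of the mean of IVP 2 and IVP 3 for 98.1% of 6459 genes. DRY 3 was within 10% of the mean of the other DRY libraries for 95.2% of 6511 genes, and LACT 3 for 98.8% of 6913 genes. For the remaining 6 Day-4 libraries the same share was 14.7% to 17.5%. What sets these 3 libraries apart was not tested. If they are not pools of their own, each Day-4 group has 2 independent libraries. The SD, SE and FDR values below count them as the third. The SD and SE values would then tend to be too small, and the FDR values could change in either direction. The libraries left over are called outer libraries. Without these 3 libraries the rule gave 362 genes, of which 329 were among the 347.

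**Figure D1:**
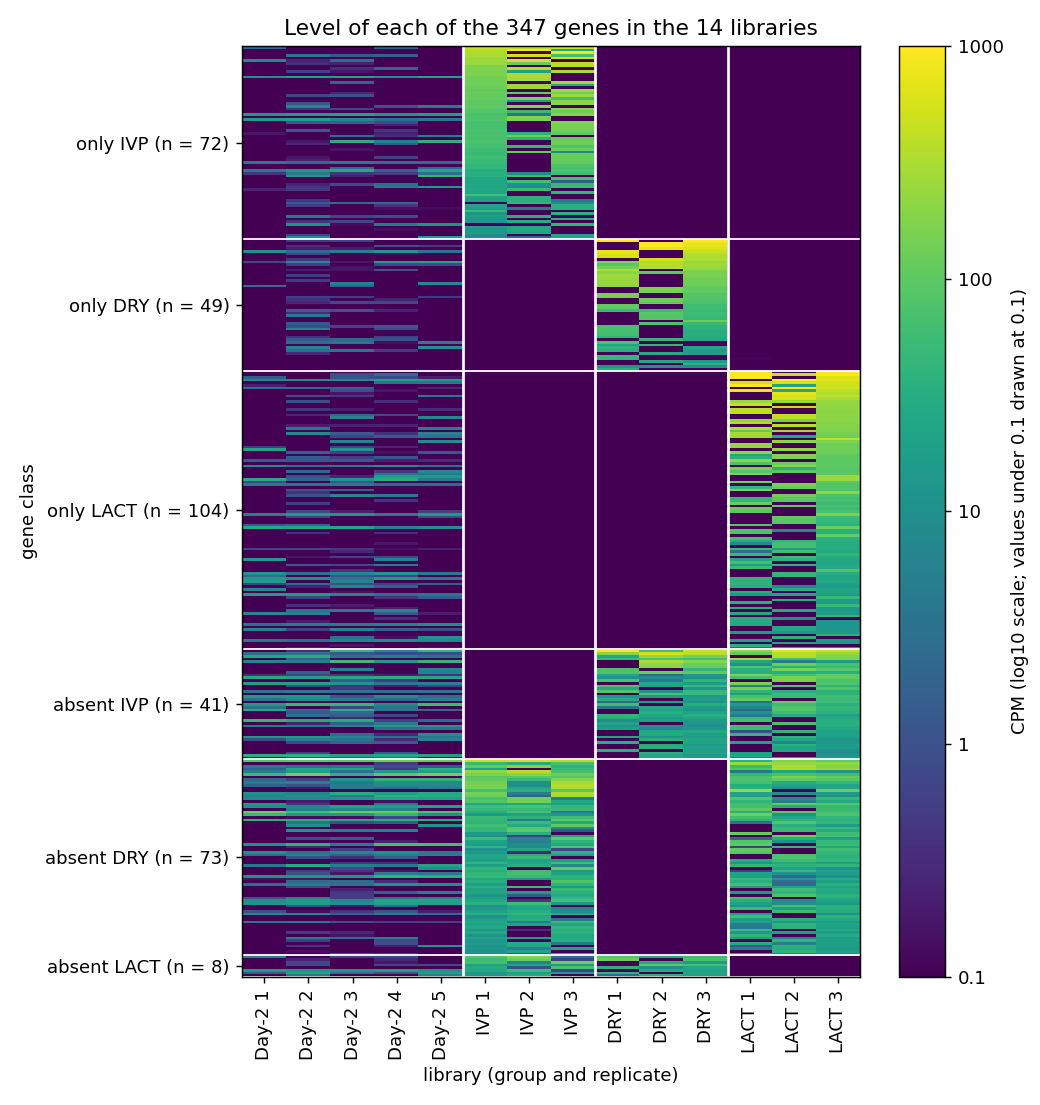
Level of each of the 347 genes (rows, grouped by class and ordered by level within a class) in each of the 14 libraries (columns), as CPM on a log10 colour scale with values under 0.1 CPM drawn at 0.1. The dark blocks are the groups where the rule requires absence, and many genes are also dark in 1 library of a group where they are present.

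By the rule, each gene had a mean of at least 10 CPM in each group where it was present. The median level was 65.3 CPM for only-IVP, 54.7 CPM for only-DRY and 56.6 CPM for only-LACT genes. For genes absent in 1 group it was lower, at 32.7 CPM for absent-IVP, 31.3 CPM for absent-DRY and 31.7 CPM for absent-LACT genes, taken over the groups where they were present. In all, 84 genes had at least 100 CPM, and the highest mean was 1549 CPM in DRY. The classes together made up 0.106% to 0.155% of all reads counted on Day 2, 0.956% to 1.20% in IVP and 0.842% to 1.09% in DRY libraries. In LACT libraries, where the largest class was present, they made up 1.67% to 1.99%. Many genes sat near the threshold, with 118 of the 347 between 10 and 20 CPM in the lower of their present groups and 166 further genes that met the absence rule at 5 to 10 CPM. The members just inside had 10.1 to 13.99 CPM, and the genes just outside had 7.59 to 9.95 CPM.

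The only-IVP genes came from embryos that never entered an oviduct. The highest of them, ENSBTAG00000013848, listed by the study under nucleoplasm and transmembrane helix, had 438, 397 and 469 CPM in IVP 1 to 3. It had at most 1 count in each DRY and LACT library. On Day 2 it had 2.45, 0.0352, 0.0332, 1.87 and 0 CPM in the 5 pools, so it was at a trace in 2 pools and near 0 in the others. The log2 fold change from Day 2 to IVP was 9.26 (SE 1.22). No FDR is given for ENSBTAG00000013848. The same holds for others that met the filter of 1 CPM in 3 libraries only with the groups where they were called present. The rule had required those groups to be high. FDR values of the other named genes are printed as a description. The rule chose those genes for a high Day-4 level too, so a low FDR is no independent support for a rise. ENSBTAG00000013848 was among the few genes whose level was alike in all pools of their group.

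The next gene of the class, ENSBTAG00000021272, differed widely between IVP pools. It had 365 CPM in IVP 1, 779 CPM in IVP 2 and 24.4 CPM in IVP 3, with 0 counts in all 5 Day-2 pools and at most 1 count in any DRY or LACT library. Against 3 counts in each Day-2 library, its IVP mean was at least 3739.9-fold higher. The only-IVP gene with the highest Day-2 level, ENSBTAG00000049722, had 11.5, 19.1, 22.4, 9.30 and 20.9 CPM in the Day-2 pools. On Day 4 it had 134 CPM in IVP 1, 312 CPM in IVP 2 and 1 count in IVP 3. It was thus found in every pool before EGA and in no DRY or LACT pool, while IVP pools went both ways. The change from Day 2 to IVP was 3.60 on the log2 scale (SE 1.11, edgeR quasi-likelihood FDR = 0.0135).

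The only-DRY genes included the most abundant gene of the set. ENSBTAG00000005583 had 92492 counts in DRY 1, which is 2954 CPM, 0 counts in DRY 2 and 48228 counts in DRY 3. Every IVP and LACT library had at most 1 count of it, and the Day-2 pools had 0, 14, 18, 2 and 0 counts. ENSBTAG00000051341 showed the opposite pools, with 0 counts in DRY 1, 47395 counts (1174 CPM) in DRY 2, 20346 counts in DRY 3 and 0 counts in all Day-2 pools. The DRY means of these genes, 1549 ± 1482 and 630 ± 592 CPM (SD, n = 3), thus each span a pool at 0 counts and a pool above 1000 CPM. Neither passed the filter of 1 CPM in at least 3 libraries, so they were not tested.

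A DRY gene with a level in all pools was ENSBTAG00000048956, at 169, 323 and 251 CPM in DRY 1 to 3. Its Day-2 levels were 0.684, 7.78, 0.166, 18.6 and 23.1 CPM, a mean of 10.1 ± 10.4 CPM (SD, n = 5). It had the highest Day-2 level of the class, and 2 of the 5 Day-2 pools were over 10 CPM. It rose to DRY by 5.04 on the log2 scale (SE 1.005, edgeR quasi-likelihood FDR = 0.000801) and had at most 1 count in every IVP and LACT library.

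The only-LACT class was the largest. ENSBTAG00000005990 had 2212 CPM in LACT 1, 0 counts in LACT 2 and 1101 CPM in LACT 3, with 2 counts in 1 Day-2 pool and 0 in the others. ENSBTAG00000018269 was present in all LACT pools, at 1421, 477 and 956 CPM, a mean of 952 ± 472 CPM (SD, n = 3). Its Day-2 counts were 0, 1, 30, 76 and 0, and the log2 fold change from Day 2 to LACT was 10.52 (SE 1.29). Both genes had at most 1 count in each IVP and DRY library.

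ENSBTAG00000054147 showed another pattern among only-LACT genes. It was found in all Day-2 pools, at 27.1, 23.9, 24.1, 6.71 and 9.65 CPM, and had no more than 1 count in 8 of the 9 Day-4 libraries. Its presence in LACT rested on 2968 counts in LACT 3 alone, against 0 in LACT 1 and 1 in LACT 2. It did not pass the test against Day 2 (log2 difference 1.45, SE 1.53, edgeR quasi-likelihood FDR = 0.438). Without IVP 1, DRY 3 and LACT 3, and with a filter of 1 CPM in 2 libraries, the edgeR quasi-likelihood FDR was 0.00292. LACT was then lower than Day 2, so 1 library decided the direction.

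**Figure D2:**
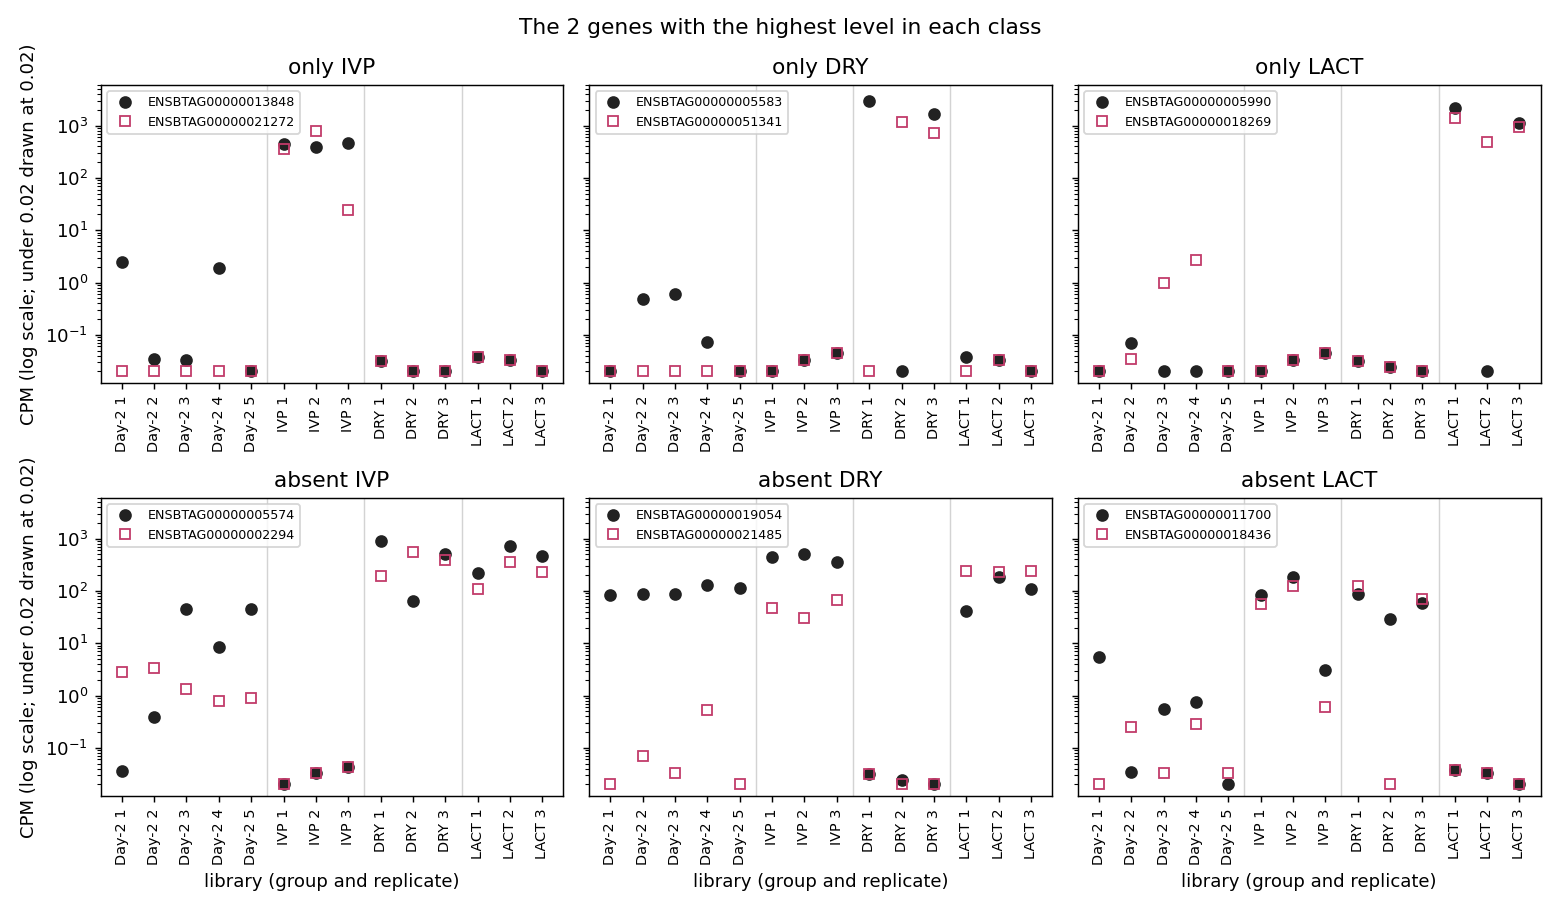
CPM (log scale, values under 0.02 drawn at 0.02) of the 2 genes with the highest level in each of the 6 classes, in each of the 14 libraries. Filled circles are the highest gene and open squares the next. ENSBTAG00000005583 and ENSBTAG00000051341 were each at 0 in a different DRY library, whereas ENSBTAG00000013848 was alike in all IVP libraries.

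The absent-IVP genes were present in embryos from both kinds of cow and had almost no counts after culture. ENSBTAG00000005574, listed under phosphoprotein and Ubl conjugation, had 895, 64.0 and 518 CPM in DRY and 219, 735 and 472 CPM in LACT, with 0, 1 and 1 counts in IVP. On Day 2 it had 0.036, 0.387, 44.5, 8.62 and 45.0 CPM, so 2 pools already held over 40 CPM of it. It rose from Day 2 to the mean of DRY and LACT by 5.04 on the log2 scale (SE 1.23, edgeR quasi-likelihood FDR = 0.00277). ENSBTAG00000002294, listed under DNA binding and nucleus, was steadier.

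ENSBTAG00000002294 had 191, 559 and 391 CPM in DRY and 107, 357 and 230 CPM in LACT. Its Day-2 levels were between 0.790 and 3.38 CPM in all 5 pools, and IVP had 0, 1 and 1 counts. The rise from Day 2 was 7.62 on the log2 scale (SE 0.58, edgeR quasi-likelihood FDR = 7.81e-08). It is a description, since the rule required high DRY and LACT levels. In contrast, ENSBTAG00000011338 had Day-2 levels (14.6, 49.4, 45.5, 7.86 and 58.1 CPM) that overlapped those in LACT (16.4, 57.4 and 37.0 CPM). Its DRY levels were 54.3, 0 and 31.2 CPM, and its difference from Day 2 did not pass the test (log2 difference 0.28, SE 0.97, edgeR quasi-likelihood FDR = 0.814).

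The absent-DRY genes were present in culture and in the oviducts of lactating cows. ENSBTAG00000019054 had the highest level of this class and also the highest Day-2 level of all 347 genes. It had 85.2, 88.9, 87.0, 130.1 and 114 CPM on Day 2, 438, 512 and 360 CPM in IVP, and 42.1, 181 and 111 CPM in LACT. In DRY it had 1, 1 and 0 counts. All Day-2, IVP and LACT pools were thus well above the DRY pools, and LACT and Day 2 overlapped. The mean of IVP and LACT was above Day 2 by 1.44 on the log2 scale (SE 0.31, edgeR quasi-likelihood FDR = 0.000971).

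The next gene of this class, ENSBTAG00000021485, had low Day-2 levels of at most 0.538 CPM. It had 47.6, 30.0 and 67.1 CPM in IVP and 241, 233 and 236 CPM in LACT, so the LACT pools were closely alike and all above the IVP pools. The log2 fold change from Day 2 to the mean of IVP and LACT was 9.93 (SE 0.95).

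Only 8 genes were absent in LACT alone, and none of them had 10 CPM in every IVP and DRY library. ENSBTAG00000011700, listed under ion transport, had 84.0, 185 and 3.04 CPM in IVP and 88.8, 29.1 and 59.1 CPM in DRY. ENSBTAG00000018436 had 55.3, 126 and 0.616 CPM in IVP and 122, 0 and 69.2 CPM in DRY. The log2 fold changes from Day 2 to the mean of IVP and DRY were 6.14 (SE 1.37) and 9.32 (SE 1.87). The third gene named, ENSBTAG00000024275, was at an even level on Day 2 (15.3, 12.1, 11.9, 17.4 and 11.5 CPM) and had 25.6, 56.6 and 0.660 CPM in IVP. Its DRY levels were 0.0319, 30.4 and 19.99 CPM, and its difference from Day 2 did not pass the test (log2 difference 0.99, SE 1.03, edgeR quasi-likelihood FDR = 0.417).

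The study listed 45 of the 347 genes, 12.97%, under a functional term, against 32.4% of the 8179 genes of at least 10 CPM in a Day-4 group. It drew those lists from differences among these samples and some lists are shortened, so they are no independent evidence of a direction. Of 10 terms with at least 3 members, 6 had members in several classes and 4 in 1 class. The largest, phosphoprotein, held 8 members (2.31% of the 347 genes, against 2.73% of the 8179), of which 2 were only-IVP, 1 only-DRY, 4 absent-IVP and 1 absent-DRY genes. The 3 terms described next were picked after it was seen that their members fell in 1 class, so that pattern is no result. The remaining term of the 4, cytoplasm, held 3 members, all absent-DRY genes (0.865% of the 347 genes, against 1.28% of the 8179), and is not described. The 3 picked terms had larger shares than the 8179 genes, so those shares are no result either.

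Oxidoreductases are enzymes that move electrons between molecules, as in respiration and in fatty acid oxidation. The term held 5 members (1.44% of the 347 genes, against 0.355% of the 8179), all absent-DRY genes. ENSBTAG00000007946 was the most even of them, at 92.6, 95.8 and 89.4 CPM in IVP and 70.9, 161 and 115 CPM in LACT, against 1, 1 and 0 counts in DRY and 1 count over all 5 Day-2 pools. The IVP and LACT pools were all above every Day-2 and DRY pool.

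ENSBTAG00000020927, listed also under fatty acid metabolism, had 34.4, 55.6 and 14.8 CPM in IVP and 16.1, 20.2 and 17.8 CPM in LACT. It had at most 0.844 CPM on Day 2, a log2 difference of 7.21 (SE 1.17). ENSBTAG00000022449, under the same terms, was found in every Day-2 pool, at 4.98 to 36.4 CPM, and had 131, 1.96 and 303 CPM in IVP and 19.8, 0 and 11.5 CPM in LACT. It went both up and down between pools, and its difference from Day 2 did not pass the test (log2 difference 1.501, SE 1.11, edgeR quasi-likelihood FDR = 0.253).

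The other 2 oxidoreductase genes were also at or under 3 counts in a pool of a group where they were called present. ENSBTAG00000002559 had 11.3, 26.2 and 0.044 CPM in IVP and 63.8, 0 and 37.4 CPM in LACT, with 0 counts on Day 2, at least 222-fold higher than 3 counts in each Day-2 library. ENSBTAG00000020037 had 33.1, 0.0338 and 77.1 CPM in IVP and 34.0, 2.67 and 17.8 CPM in LACT, against at most 2.76 CPM on Day 2.

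The term zymogen, for enzymes made as inactive precursors, held 3 members (0.865% of the 347 genes, against 0.0734% of the 8179), all absent-IVP genes. ENSBTAG00000008900 was present in every oviduct pool, at 53.3, 71.7 and 62.3 CPM in DRY and 278, 58.4 and 169 CPM in LACT, with a log2 difference from Day 2 of 8.37 (SE 1.31). ENSBTAG00000009051 had 0, 189 and 114 CPM in DRY, 80.8, 31.3 and 55.8 CPM in LACT and 0 counts on Day 2, at least 753.6-fold higher on the same base. ENSBTAG00000046169, listed under zinc too, had 2.76 to 15.7 CPM on Day 2. With 22.2, 10.95 and 16.5 CPM in DRY and 0, 36.9 and 18.4 CPM in LACT, it did not pass the test against Day 2 (log2 difference 1.35, SE 1.04, edgeR quasi-likelihood FDR = 0.272).

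Sequence-specific binding near RNA polymerase II promoters, the activity of many transcription factors, held 3 members (0.865% against 0.208%), all absent-IVP genes. ENSBTAG00000008756 was even in each group, at 12.5, 16.2 and 14.6 CPM in DRY and 65.4, 50.9 and 58.6 CPM in LACT. The LACT pools were all above the DRY pools, and the Day-2 pools ranged from 1.29 to 14.5 CPM (rise 2.11 on the log2 scale, SE 0.62, edgeR quasi-likelihood FDR = 0.00871). ENSBTAG00000004313 had 0.0319, 26.9 and 28.1 CPM in DRY and 0.839, 39.0 and 19.6 CPM in LACT, with 0 counts on Day 2, at least 183-fold higher on the same base.

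ENSBTAG00000007383, listed as a zinc finger gene, had 0, 29.4 and 18.5 CPM in DRY and 40.9, 0 and 20.9 CPM in LACT. It was at 0 in 1 outer pool of each oviduct group, with a log2 difference from Day 2 of 3.46 (SE 1.82). No only-LACT gene was in any term list used here.

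The presence of a gene in a group mostly rested on few pools. Leaving aside the library at the average of its group, 167 of the 225 only-genes, 74.2%, had at most 3 counts in at least 1 of the 2 remaining libraries of the very group where they were called present. Among the only-IVP genes this was 49 of 72, with 18 found in IVP 2 and not IVP 3, 29 in IVP 3 and not IVP 2, and 2 in neither. Among the only-DRY genes it was 42 of 49, with 25 in DRY 1 alone, 15 in DRY 2 alone and 2 in neither. Among the only-LACT genes it was 76 of 104, with 35 in LACT 1 alone, 29 in LACT 2 alone and 12 in neither. No single library carried a class: within each group both outer libraries had genes that the other lacked.

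Genes with at least 10 CPM in both of these libraries numbered 15 in IVP, 6 in DRY and 23 in LACT. For the genes found in 1 outer library, the average-like library held a median of 0.469 of that library's CPM in IVP, 0.579 in DRY and 0.516 in LACT. The ratio lay between 0.4 and 0.6 for 35 of 47 genes in IVP, 24 of 40 in DRY and 48 of 64 in LACT. Among genes absent in 1 group, 66 of 122 had at most 3 counts in at least 1 outer library of the groups where they were present. Asking for 10 CPM in every library of the present groups left 64 genes, namely 14 only-IVP, 5 only-DRY, 22 only-LACT, 6 absent-IVP, 17 absent-DRY and 0 absent-LACT genes.

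**Figure D3:**
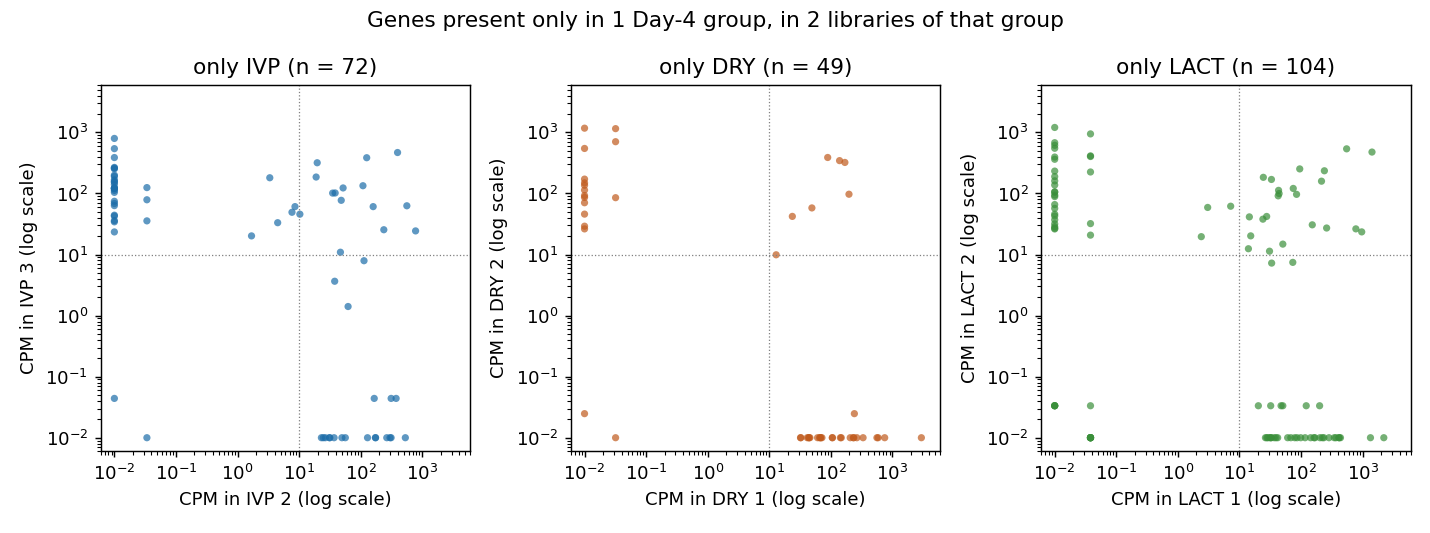
CPM of the only-IVP, only-DRY and only-LACT genes in the 2 libraries of their group that do not lie at its average, both axes on a log scale, with 0 counts drawn at 0.01 and dotted lines at 10 CPM. Points along the left and lower edges are the genes with at most 3 counts in 1 of these libraries, 49 of 72 in IVP, 42 of 49 in DRY and 76 of 104 in LACT, counting those near 0 in both.

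Pools of the same group also differed in this way over the whole table. In IVP, 172 genes had at least 10 CPM in 1 outer library and at most 3 counts in the other, and 47 of them (27.3%) were only-IVP genes. The number was 337 in DRY, of which 40 (11.9%) were only-DRY genes, and 382 in LACT, of which 64 (16.8%) were only-LACT genes. Of all genes of at least 10 CPM in an outer library, 1.22% to 1.501% in IVP, 2.56% to 2.81% in DRY and 2.62% to 3.13% in LACT had at most 3 counts in the other. Each of these shares is for 1 direction. They are far below the 68.1%, 85.7% and 73.1% of only-IVP, only-DRY and only-LACT genes with at most 3 counts in an outer library. Those are another measure, since they count either outer library and include genes low in both. A rule on the group mean and on low counts elsewhere can also favour such genes, so the difference was not tested. Over all pairs of the 5 Day-2 pools together 627 genes had at least 10 CPM in 1 pool and at most 3 counts in another. For a given pair and direction the number was 20 to 466, the highest being genes found in pool 5 and not in pool 1.

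The counts on the absent side had a narrow form. Of the 1716 values of the 347 genes in libraries of groups where they were absent, 905 were 0, 808 were 1, 1 was 2 and 2 were 3. The largest count in the absent groups was exactly 1 for 344 of the 347 genes and was never 0. A rule that asks for 0 counts on the absent side therefore keeps 0 genes. The library at the average of its group was at 0 for 194 of 194 genes absent in IVP, 248 of 249 absent in DRY and 129 of 129 absent in LACT, and the counts of 1 were in the outer libraries except for 1 value in DRY 3.

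The share of genes at 0 in every library moved with the level of the gene elsewhere. Among all genes with at most 3 counts in each IVP library and at least 10 CPM in another Day-4 group, 6 of 300 (2.00%) were at 0 in all 3 IVP libraries. For genes under 1 CPM in the other groups the share was 85.5%, and for those at 1 to 10 CPM it was 34.6%. In DRY the shares were 0.239% (1 of 419 genes), 87.6% and 41.4%, and in LACT 0% (0 of 177 genes), 83.0% and 37.7%. On Day 2, the matching set is all genes with at most 3 counts in each pool and at least 10 CPM in a Day-4 group. Of these, 131 of 355 (36.9%) were at 0 in all 5 pools. Among the 105 of them in the 6 classes it was 66 (62.9%). What gives abundant genes a count of exactly 1 in the Day-4 libraries was not tested, and levels of 0 and 1 count cannot be told apart at this depth.

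**Figure D4:**
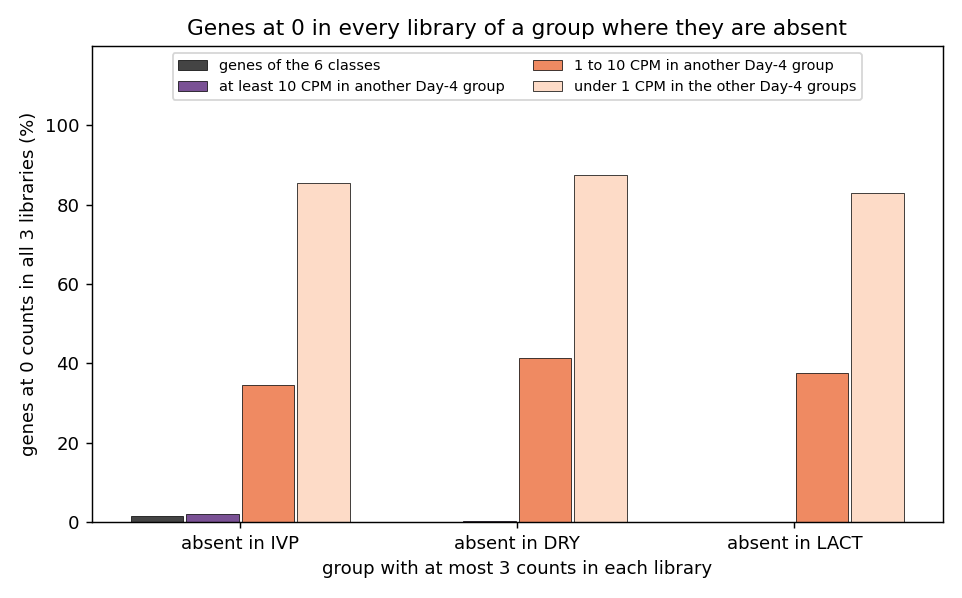
Share of genes at 0 counts in all 3 libraries of a Day-4 group, among genes with at most 3 counts in each, by their level in the other Day-4 groups. Bars start at 0. Genes with at least 10 CPM elsewhere were all-zero in 2.00% (IVP), 0.239% (DRY) and 0% (LACT) of cases, against 83.0% to 87.6% of genes under 1 CPM elsewhere.

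Most genes of the set were low or absent before EGA. On Day 2, 105 of the 347 genes (30.3%) were absent, with at most 3 counts in each of the 5 pools, against 4.33% of the 8179 genes of at least 10 CPM in a Day-4 group. Only 37 (10.7%) were present at a Day-2 mean of at least 10 CPM, against 65.2% of those genes. The other 205 lay between. Absence on Day 2 was found for 29 of 72 only-IVP, 20 of 49 only-DRY and 34 of 104 only-LACT genes, and for 8 of 41 absent-IVP, 13 of 73 absent-DRY and 1 of 8 absent-LACT genes.

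Presence on Day 2 was found for 9 absent-IVP and 17 absent-DRY genes, against 6 only-IVP, 1 only-DRY and 3 only-LACT genes, with 1 absent-LACT gene. The median Day-2 level was 0.0907 CPM for only-IVP, 0.119 CPM for only-DRY and 0.207 CPM for only-LACT genes. It was 1.32 CPM for absent-IVP, 1.12 CPM for absent-DRY and 0.917 CPM for absent-LACT genes. At least 10 CPM in all 5 Day-2 pools was found for 10 genes of the set. Going both ways between Day-2 pools (at least 10 CPM in 1 and at most 3 counts in another) was found for 17 genes (4.90%), against a background of 2.93%.

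**Figure D5:**
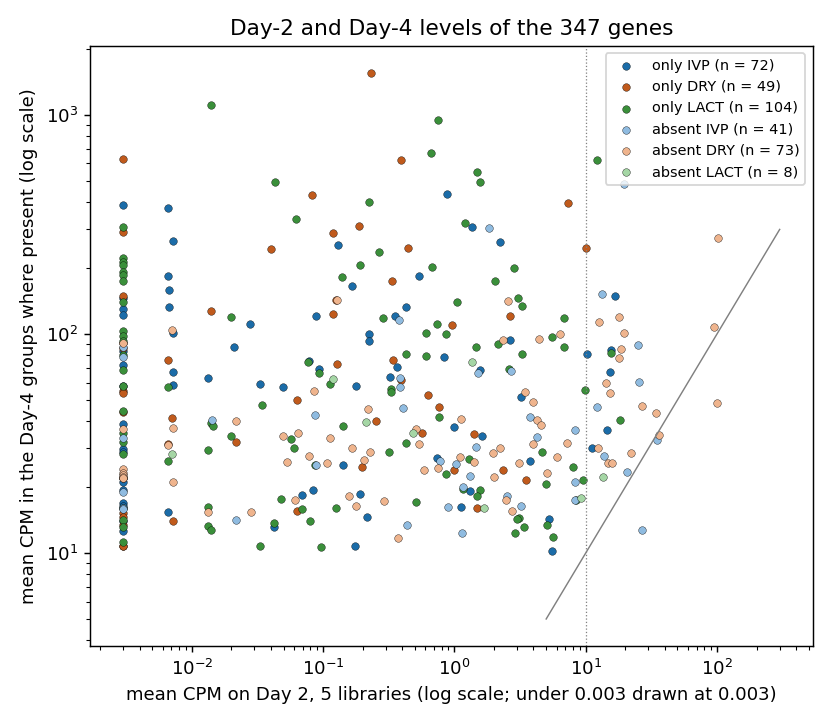
Mean Day-2 CPM over 5 libraries (x axis) and mean CPM in the Day-4 groups where the gene is present (y axis), both on a log scale, for the 347 genes coloured by class. The dotted line marks 10 CPM on Day 2 and the solid line equal levels, with 37 genes at or right of the dotted line and 4 with a Day-2 mean above their Day-4 level.

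Against Day 2, with the mean of the groups where a gene was present, 244 of the 347 genes passed the filter on low counts. Of these, 180 were higher on Day 4 and 0 were lower at an FDR under 0.05 (0 lower at an unadjusted p under 0.05 in edgeR, and 0 by DESeq2). Of the 72 only-IVP genes 42 were tested and 34 were higher (29.7% of all 13390 genes were higher and 25.2% lower in IVP than on Day 2). Of the 49 only-DRY genes 18 were tested and 15 were higher (background 27.4% higher and 26.6% lower), and of the 104 only-LACT genes 62 were tested and 44 were higher (background 29.7% and 23.7%). Among genes absent in 1 group all were tested, and 27 of 41 absent-IVP (background 29.5% higher and 30.6% lower), 55 of 73 absent-DRY (31.2% and 29.9%) and 5 of 8 absent-LACT genes (29.8% and 31.4%) were higher.

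These counts are a description and carry no support of their own. The rule asked for a high Day-4 level, and a gene that was low on Day 2 passed the filter only with the libraries where it was high. Of the 244 genes tested, 80 met the filter through libraries outside the groups where they were present, and 34 of these were higher on Day 4 and 46 did not pass the test. They included 6 of 10 only-IVP, 2 of 3 only-DRY, 6 of 18 only-LACT, 5 of 17 absent-IVP, 15 of 30 absent-DRY and 0 of 2 absent-LACT genes that were higher. Over all 13390 genes 27.4% to 31.2% were higher in the same contrasts. The shares of only-LACT and absent-IVP genes were near this background. Those of only-IVP, only-DRY and absent-DRY genes were above it, and that of absent-LACT genes was below it, some on very few genes. The rule still chose these 80 genes for a high Day-4 level and did not choose the 13390 genes so. A share above, near or below this background is therefore no result. With no filter 277 of the 347 genes were higher, including 64 only-IVP, 45 only-DRY and 84 only-LACT genes. Leaving out a library of the group where they were present moved the only-gene counts by over 1.5 times. With 2 such libraries alone a filter of 3 cannot be met, so fewer only-genes were tested. Of those still tested, a smaller share was higher. Without IVP 1, 2 or 3 the only-IVP count was 13 of 20, 16 of 25 or 12 of 22 tested. Without DRY 1, 2 or 3 the only-DRY count was 7 of 11, 9 of 12 or 5 of 9 tested. Without LACT 1, 2 or 3 the only-LACT count was 26 of 43, 22 of 40 or 21 of 40 tested. Without the 3 average-like libraries the filter was eased to 1 CPM in 2 libraries. Of the 246 genes then tested, 164 were higher and 3 were lower.

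Of the 37 genes already present on Day 2, 14 were higher on Day 4, against 27.4% to 31.2% of all 13390 genes in the same contrasts. The rule asked these 37 genes too for a high Day-4 level, so their share is a description. Another 23 did not pass the test, and 4 of the 37 had a Day-2 mean above their mean on Day 4. Each of the 37 genes was found before EGA and had at most 3 counts in every library of at least 1 Day-4 group. Of the 64 genes with 10 CPM in every library of their groups, 19 were absent and 7 present on Day 2.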

How the data were processed

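RNA from 14 pools of 5 embryos was sequenced on an Illumina HiSeq instrument as single-end reads from NuGEN Encore Complete libraries. The authors deposited whole-number counts per Ensembl gene, described as read counts made with Trimmomatic, STAR 2.7.0b on bosTau9 and featureCounts (Subread 2.0.3). The annotation release and the strand setting used in counting are not given in the sources used here, so overlapping, antisense and near-identical genes are uncertain. In each Day-4 group 1 column lies at the mean of the others, and low values there are nearly all 0 or 1, so it is open to doubt whether the Day-4 columns are raw counts of 3 independent pools. This was not tested, and every Day-4 count, SD, SE and FDR rests on it. Groups and replicate numbers came from the sample titles, and p-values measure the spread between these pools.

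CPM used column totals. Day-2 contrasts were fitted with edgeR 4.0.16 (R 4.3.3) on the 13390 genes that reached 1 CPM in 3 or more of the 14 libraries, with TMM, 1 coefficient per group and the robust quasi-likelihood test. The contrast was the mean of the groups where a class was present minus Day 2, and Benjamini-Hochberg adjustment ran over all genes tested, at an FDR of 0.05. SE was the log2 fold change divided by the root of F. The fit was also run on simulated counts with independent libraries and the same changes in all Day-4 groups. That run held no genes lost in some pools of a group and no average-like library, so it is no check of these features. DESeq2 1.42.0 was an alternative.

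The genes, classes and lists were chosen with earlier results of these data known. The rule for named genes was, per class, the 5 with the highest mean in the groups where present, the 3 with the highest Day-2 mean of at least 10 CPM, members of symbol lists and the genes nearest the threshold. Only the first 2 and the first 1 are printed by identifier, and symbol lists, cell type markers, gene type and position were not evaluated, because no table used here pairs these identifiers with symbols. The 11 genes under 3 functional terms were added after their values were seen. ENSBTAG00000055153, listed under nucleosome core and not under a histone term, was kept.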

Additional observations from a re-analysis of the deposited data

Results flagged for a closer look

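Of 28 genes named above, 6 had 1 Day-2 pool far from the other 4 pools. The gap test used flags about 1 in 20 groups by chance when values follow a normal distribution. Low and uneven counts such as these need not follow it, so that rate may not hold here. It does not hold for the genes with 1 or 2 counts in 1 pool and 0 in the rest, whose gap is always the whole range. All 6 were cases of a single higher pool. For ENSBTAG00000005990 Day-2 pool 2 had 0.07037 CPM, from 2 counts, and the next pool had 0. For ENSBTAG00000021485 pool 4 had 0.5385 CPM against 0.07037 CPM in the next. For ENSBTAG00000011700 pool 1 had 5.397 CPM against 0.7539 CPM. For ENSBTAG00000007946 pool 2 had 0.03518 CPM, from 1 count, against 0. For ENSBTAG00000020927 pool 2 had 0.8444 CPM against 0.1077 CPM. For ENSBTAG00000008900 pool 2 had 1.83 CPM against 0.0718 CPM. All were under 10 CPM, and 4 of them were in Day-2 pool 2.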

How the results depend on the processing

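The number of genes was 229 at a presence threshold of 20 CPM, 0 with absence at 0 counts and 64 with 10 CPM required in every library of the present groups, while leaving out 1 Day-4 library gave 344 to 356. At 5 CPM it was 513, with 10 counts for absence 354, with TMM-scaled sizes 361 and with DESeq2 size factors 370. Genes absent on Day 2 numbered 66 with absence at 0 counts and 105 to 123 without 1 Day-2 library, and those present on Day 2 numbered 57 at 5 CPM, 12 at 20 CPM and 34 to 38 without 1 library. At 20 CPM in place of 10, genes that went both ways between pools of a group numbered 267 (Day 2), 109 (IVP), 141 (DRY) and 212 (LACT), and with 0 counts required on Day 2 they numbered 417. The 180 genes higher than on Day 2 became 277 with no filter, 192 by DESeq2, 203 by the likelihood ratio test and 152 to 178 without 1 library. Genes lower than on Day 2 numbered 3 without the 3 average-like libraries, where the filter was 1 CPM in 2 libraries. They numbered 0 to 4 without 1 library, the 4 without LACT 3. With a replicate block 151 genes were higher and 0 lower, and the numbers do not pair the pools: deviations of same-numbered pools correlated at -0.0248 to 0.139 over 18 pairs, 1 of them over 0.1, and 4 of 12 libraries correlated best with their own number.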
